A study of Mus musculus with 42 samples.

Results

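The RNAs described here were recovered on anti-HA beads with tagged Tnrc6a from mouse embryonic stem cells labelled as lacking Trim71, and are set against the RNAs that the same beads recovered from cells without a tag. They come from experiment 2 of an RNA immunoprecipitation series (RIP-seq), in which RNA is sequenced from a whole lysate, the input, and from the fraction bound to the beads, the IP. The members are 12 of the 42 libraries of the series, chosen by their labels: 3 IP and 3 input libraries of Trim71KO cells, and 3 of each of untagged cells. The quantity is a difference of log2 ratios, IP over input in Trim71KO cells minus IP over input in untagged cells. A gene is called higher or lower at a Benjamini-Hochberg adjusted p under 0.05 from edgeR's quasi-likelihood F test over all 19778 genes tested.

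All 12 libraries are from one strain background, 129S6/SvEvTac, and from cells with a yGlob GFP_5xT71BS reporter and a stably transfected FLAG-Cas9::T2A::Blasticidin construct, grown with serum and LIF. The untagged cells carry no further label. The Trim71KO cells are labelled HA-AVI-Tnrc6a and Trim71-/-. The tagged cells used for reference below are labelled HA-AVI-Tnrc6a and keep Trim71, and the Ago2KO cells carry the same tag and lack Ago2. Replicates were triplicate dishes, and p-values therefore measure the spread between dishes. The labels name no separate clones, so a genotype and the line that carries it cannot be told apart.

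Tnrc6a is a GW182 protein, one of a small family of scaffolds in animal RNA silencing. An Argonaute protein loaded with a microRNA pairs with an mRNA through the microRNA seed, and GW182 proteins bind the Argonaute and bring in the PAN2-PAN3 and CCR4-NOT deadenylases, which shorten the poly(A) tail. Trim71 (Lin41) is an RNA-binding protein of early embryos and stem cells that represses mRNAs such as that of Cdkn1a. Embryonic stem cells express microRNAs of the miR-290 cluster and of the related miR-302 and miR-17 families, while mature let-7 is held low by Lin28a.

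The mature microRNAs whose textbook targets are followed below are printed with the seed, bases 2 to 8 counted from the 5′ end, in capitals, because the seed guides an Argonaute to its mRNAs. The sequences are RefSeq's for GRCm38.p6, and all 12 names looked up were matched. These 5 share the seed AAGUGCU, which 5 mature names of the table carry.
mmu-miR-291a-3p: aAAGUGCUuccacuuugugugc
mmu-miR-294-3p: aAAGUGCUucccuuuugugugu
mmu-miR-295-3p: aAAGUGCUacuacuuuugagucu
mmu-miR-302b-3p: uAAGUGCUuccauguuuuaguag
mmu-miR-302d-3p: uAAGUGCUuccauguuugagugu
The next 4 share the seed AAAGUGC, which 7 mature names carry.
mmu-miR-17-5p: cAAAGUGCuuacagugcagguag
mmu-miR-20a-5p: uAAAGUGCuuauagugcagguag
mmu-miR-106a-5p: cAAAGUGCuaacagugcagguag
mmu-miR-93-5p: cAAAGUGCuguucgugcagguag
The last 3 share the seed GAGGUAG, which 11 mature names carry.
mmu-let-7a-5p: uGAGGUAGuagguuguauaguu
mmu-let-7f-5p: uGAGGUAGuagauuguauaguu
mmu-let-7g-5p: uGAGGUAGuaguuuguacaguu
The mature stretch of mmu-miR-291a-3p lies at chr7:3218968-3218989 (plus strand) and that of mmu-miR-295-3p at chr7:3220815-3220837 (plus strand), within one cluster. The mature stretches of mmu-miR-302b-3p, mmu-miR-17-5p and mmu-let-7g-5p lie at chr3:127545275-127545297 (plus strand), chr14:115043684-115043706 (plus strand) and chr9:106178846-106178867 (plus strand). Sequences of the target mRNAs were not used here, so no seed match was counted.

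The 12 libraries held 16296447 to 21026552 counts over 19866 genes, and the median SE of the difference was 0.184 on the log2 scale. Replicates of a group differed by more than sampling noise in all 12 pairs, with a chi-square per gene of 3.72 to 49.8, and the widest pair was untagged IP replicates 1 and 2. Markers of embryonic stem cells were high in all inputs, with a summed RPKM over 14 genes of 4640 to 4960 in untagged and 5310 to 5660 in Trim71KO cells, where 9 of the 14 were called higher. Primitive endoderm markers were low and lower still in Trim71KO inputs, with 5 of 7 tested called lower and a summed RPKM of 4.13 to 4.68 against 2.01 to 2.51. Of 4 fibroblast markers tested 1 was called higher and 1 lower in the Trim71KO inputs, and their sum was 12 to 14.5 against 17.6 to 18.7, while Col1a2, Col3a1, Dcn, Lum, Postn and Twist2 did not pass the filter on low counts. Of neural markers 2 of 6 tested were called lower and of trophoblast markers 1 of 2, while none of 5 mesoderm markers tested was called. Over all genes 14.0% were called higher and 15.1% lower between the inputs. In bulk RNA, fewer cells of a type and less RNA per cell cannot be told apart. The part of these markers in the results below was not tested.

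Trim71 RNA does not check the Trim71KO label. It stood at 269.6, 278 and 267 CPM in the untagged inputs, 212, 252 and 249 in the untagged IPs, 368, 387 and 376 in the Trim71KO inputs and 436, 444 and 421 in the Trim71KO IPs. The input level was higher in Trim71KO than in untagged cells, by 0.47 (SE 0.08, adjusted p 8.52e-05) on the log2 scale. The counts per gene do not show whether part of the gene was deleted, so the direction of every comparison refers to the libraries labelled Trim71KO. The tag is checked by the bait's own mRNA, at chr7:123031101-123195296. Tnrc6a stood at 98.2, 98.7 and 89.7 CPM in the untagged inputs, 90.4, 82.7 and 74.2 in the untagged IPs, 110.3, 114 and 117 in the Trim71KO inputs and 21905, 17790.2 and 13725 in the Trim71KO IPs. The 3 Trim71KO IPs stood far above the other 9 libraries, and the bait's mRNA made up 1.22% to 1.92% of all counts in the Trim71KO IPs. Its difference of 7.50 (SE 0.31, adjusted p 1.16e-15) was the largest among genes chosen by the naming rule, and in tagged cells with Trim71 it was 7.90 (SE 0.31). Ago2 mRNA, which encodes an Argonaute protein, was recovered too. It stood at 373, 434 and 369.6 CPM in the untagged inputs, 290.4, 313 and 255 in the untagged IPs, 297, 299.9 and 377 in the Trim71KO inputs and 896, 945 and 1029.9 in the Trim71KO IPs, a difference of 2.02 (SE 0.14, adjusted p 6.07e-12).

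Without Trim71, tagged Tnrc6a still recovered many RNAs above the beads alone. Trim71KO cells gave 4547 higher calls over untagged cells, 23.0% of the genes tested, and 3100 lower calls, 15.7%. The higher genes moved further, with a median log2 difference of 0.98 against -0.49 for the lower genes. Differences of at least 2-fold were found for 2229 of the higher genes, 11.3% of all tested, and for 202 of the lower genes, 1.02%, and 168 of the higher genes reached 8-fold. The split leans on scaling: with library sizes alone, 43.5% of the calls were higher in place of 59.5%, and the median of all genes moved from -0.02 to -0.18.

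**Figure D1:**
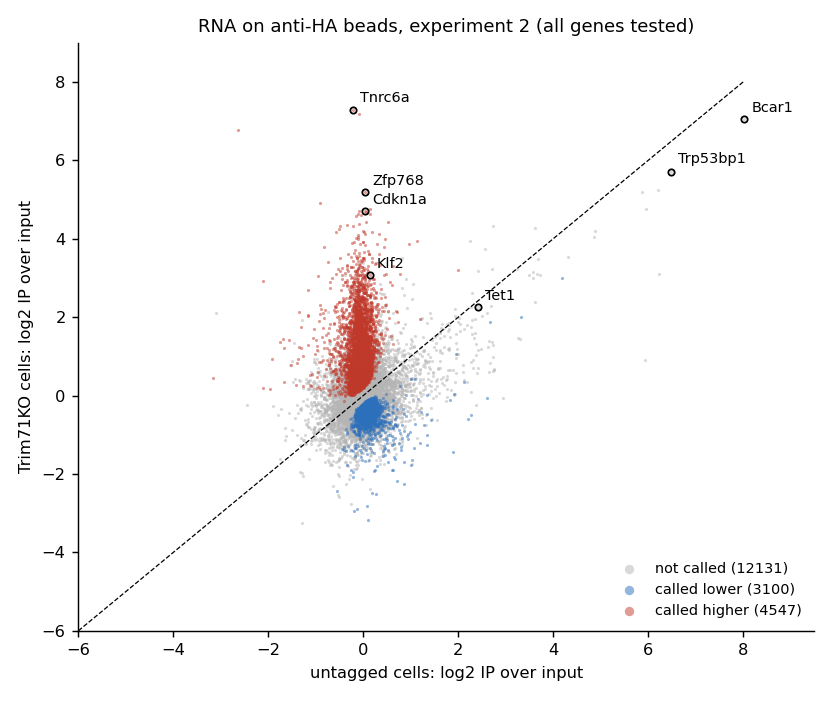
Log2 IP over input in untagged cells (horizontal axis) and in Trim71KO cells (vertical axis) for the 19778 genes tested, with the 4547 called higher in red, the 3100 called lower in blue and the others in grey; the dashed line marks equal ratios. The red genes rise in a column near 0 on the horizontal axis, while Bcar1, Trp53bp1 and Tet1 were bound by the beads in both genotypes and lie near the line.

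The difference lay mostly in the IP fraction. The tests that follow share libraries with the main one and are given as a description of it. Among the 4547 genes called higher, 4108 were also called higher in Trim71KO IP than in untagged IP when the IPs were compared directly, and 56 were called lower. In the inputs 658 of them were higher in Trim71KO, 938 were lower and 2951 were not called. Over all genes, 31.2% were called higher and 28.1% lower between the IPs, against 14.0% and 15.1% between the inputs. Among the 3100 genes called lower, 2511 were lower between the IPs and 625 were higher between the inputs.

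A few RNAs stuck to the beads without any tag. Bcar1, which encodes an adaptor protein of focal adhesions, stood at 62.9, 73.2 and 73.8 CPM in the untagged inputs, 27699.9, 5765 and 20836 in the untagged IPs, 49.01, 50.4 and 45.7 in the Trim71KO inputs and 8485, 6533 and 4217 in the Trim71KO IPs. Untagged IP replicate 2 stood well below replicates 1 and 3, and the IPs of the genotypes overlapped. Its difference was -0.96 (SE 0.50, adjusted p 0.134), which did not pass the test. Trp53bp1, a DNA damage response gene, ran the same way, with 11834, 2663 and 9003 CPM in the untagged IPs and 5081, 4702 and 3706 in the Trim71KO IPs over inputs of 87.1, 87.1 and 88.2 and 75.6, 89.2 and 93.1 CPM. Its difference of -0.78 (SE 0.41) was not called.

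After Tnrc6a, the largest difference among genes with a mean log2 CPM of at least 2 and no overlap between genotypes was that of Zfp768. Zfp768, a zinc finger gene at chr7:127342795-127345314, stood at 4.02, 4.15 and 4.49 CPM in the untagged inputs, 3.76, 4.53 and 4.72 in the untagged IPs, 4.42, 4.38 and 3.35 in the Trim71KO inputs and 155, 145 and 146 in the Trim71KO IPs. The Trim71KO IPs did not overlap the other 9 libraries, a difference of 5.15 (SE 0.31, adjusted p 6.34e-13). Zbtb7a, a transcriptional repressor of the POZ zinc finger family, stood at 67.5, 65.5 and 69.3 CPM in the untagged inputs, 59.6, 64.2 and 66.4 in the untagged IPs, 92.2, 89.5 and 94.3 in the Trim71KO inputs and 2617, 2279 and 2363 in the Trim71KO IPs. It differed by 4.81 (SE 0.26, adjusted p 1.08e-13), although its input was also higher in Trim71KO cells. Gnb5, which encodes a G protein beta subunit, stood at 9.37, 9.15 and 8.08 CPM in the untagged inputs, 7.83, 8.68 and 7.21 in the untagged IPs, 8.65, 7.28 and 7.42 in the Trim71KO inputs and 193, 182 and 184 in the Trim71KO IPs, a difference of 4.74 (SE 0.25, adjusted p 6.1e-14). Plagl2, a zinc finger transcription factor, differed by 4.71 (SE 0.31) and Rfx4, a transcription factor of the RFX family, by 4.49 (SE 0.42). 9530068E07Rik differed by 4.64 (SE 0.24). Tagap and Tagap1, related genes on chromosome 17, differed by 4.62 (SE 0.32) and 4.63 (SE 0.31), and how the counting split reads between them is not stated. Rows without a symbol, ENSMUSG00000114165 and ENSMUSG00000116618, differed by 4.76 and 4.74.

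Textbook targets of the miR-290 family were recovered without exception. All 10 members measured of the 11 listed were called higher, against 23.0% of all genes. Their median difference was 2.77, with a range of 1.33 to 4.65, against a median of -0.02 over all genes. This list, like the others, was chosen with earlier results of these data known. Cdkn1a, the inhibitor of cyclin-dependent kinases also called p21, lies at chr17:29090979-29100722. It stood at 67.5, 73.6 and 69.4 CPM in the untagged inputs, 65.3, 76.2 and 75.5 in the untagged IPs, 58.2, 55.1 and 63.3 in the Trim71KO inputs and 1522, 1451 and 1607 in the Trim71KO IPs. Nothing in the other 9 libraries came near the Trim71KO IPs, a difference of 4.65 (SE 0.21, adjusted p 3.82e-15). Casp2, a caspase gene, stood at 25.6, 28.2 and 29.3 CPM in the untagged inputs, 23.3, 26.3 and 24.8 in the untagged IPs, 27.2, 28.1 and 27.5 in the Trim71KO inputs and 457, 448 and 434 in the Trim71KO IPs, and differed by 4.17 (SE 0.23, adjusted p 1.25e-13). Rbl2, the pocket protein p130 of the retinoblastoma family, stood at 18.6, 20.8 and 17.2 CPM in the untagged inputs, 16.4, 18.2 and 14.7 in the untagged IPs, 18.97, 15.3 and 19.5 in the Trim71KO inputs and 278, 257 and 271 in the Trim71KO IPs. Its difference was 4.104 (SE 0.27, adjusted p 3e-12), and neither Casp2 nor Rbl2 overlapped between Trim71KO IP and the other libraries. Ei24, a gene induced by p53, differed by 2.98 (SE 0.16), and Wee1, a kinase that holds back entry into mitosis, by 2.68 (SE 0.15). The row taken for the Hippo kinase Lats2, whose symbol is missing or shared between rows, differed by 2.87 (SE 0.38). The TGF-beta receptor Tgfbr2, the small GTPase Rhoc, the iron-sensing ubiquitin ligase subunit Fbxl5 and the kinase Akt1 had the smaller differences of 2.10, 1.59, 1.46 and 1.33. Against tagged cells with Trim71, none of the 10 was called, at a median of 0.15, where 1.49% of all genes were called.

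Targets of the miR-17 family behaved similarly, with 9 of 11 called higher, none called lower and a median of 2.10. The share called higher was 81.8%, against 23.0% of all genes. The list shares members with the previous one, among them Cdkn1a and Rbl2, so the 2 lists are not independent. Bcl2l11, which encodes the death-promoting Bcl2 relative Bim, stood at 33.3, 32.8 and 33.3 CPM in the untagged inputs, 30.4, 30.3 and 32.9 in the untagged IPs, 21.1, 18.5 and 18.2 in the Trim71KO inputs and 256, 227 and 234 in the Trim71KO IPs. Its input was lower in Trim71KO than in untagged cells while its IP was far higher, a difference of 3.72 (SE 0.18, adjusted p 1.95e-14). The cell-cycle transcription factors E2f2, E2f3 and E2f1 differed by 3.65 (SE 0.28), 2.47 (SE 0.23) and 1.93 (SE 0.18). Bmpr2 and Phlpp1 were not called, at 0.33 (SE 0.17) and 0.00 (SE 0.13).

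Of 12 let-7 targets, 10 were called higher and none lower, with the lower median of 0.93. The share called higher was 83.3%, against 23.0% of all genes. Mycn, a growth-promoting transcription factor, stood at 95.7, 106 and 108 CPM in the untagged inputs, 108, 108 and 122 in the untagged IPs, 147, 143 and 158 in the Trim71KO inputs and 658, 657 and 761 in the Trim71KO IPs, and differed by 2.09 (SE 0.15, adjusted p 7.4e-12). The next largest were Igf2bp1, an RNA-binding protein, at 1.42 (SE 0.14), Lin28a, the protein that blocks let-7 maturation, at 1.41 (SE 0.10), and the cyclin Ccnd2 at 1.37 (SE 0.25). Lin28b differed by 0.90 and Cdc25a, a phosphatase that drives the cell cycle, by 0.96. Hmga2 at 0.21 (SE 0.14) and Nras at -0.15 (SE 0.07) were not called. Trim71 itself is a textbook let-7 target. Its difference was 0.39 (SE 0.12, adjusted p 0.0092), a call that was lost without untagged IP replicate 1 (0.30, adjusted p 0.0565) and with library sizes alone (0.24, adjusted p 0.0925).

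Messages reported as Trim71's own targets were mostly still recovered above untagged cells. Of 8 measured, 6 were called higher, none lower, and the median was 1.64. The share called higher was 75%, against 23.0% of all genes. Against tagged cells 2 of the 8 were called lower and none higher, at a median of -0.14. Over all genes 0.738% were called lower in that test. Cdkn1a and Rbl2 belong to this list too, and the list was fixed with earlier results of these data known, so it adds no independent evidence. Inhbb, which encodes an activin subunit, stood at 229, 224 and 230.4 CPM in the untagged inputs, 211, 213 and 202 in the untagged IPs, 339.5, 341 and 322 in the Trim71KO inputs and 1479, 1408 and 1317 in the Trim71KO IPs. It differed by 2.196 (SE 0.21, adjusted p 1.74e-09). Rbl1, the pocket protein p107, and Nab2, a corepressor of Egr factors, differed by 1.09 (SE 0.12) and 0.83 (SE 0.12). Egr1, an immediate early transcription factor, was not called at 0.85 (SE 0.77). Plxnb2, a semaphorin receptor, stood at 69.7, 71.4 and 62.1 CPM in the untagged inputs, 72.4, 61.2 and 57.7 in the untagged IPs, 147, 143 and 153 in the Trim71KO inputs and 126, 143 and 200.4 in the Trim71KO IPs. Its input and IP levels both lay above the untagged libraries, and its difference of 0.17 (SE 0.17, adjusted p 0.459) did not pass the test. Against tagged cells Plxnb2 fell by 0.77 (SE 0.17, adjusted p 0.0173), a call lost without Trim71KO IP replicate 2 (-0.73, adjusted p 0.0614).

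The silencing proteins' own mRNAs were also on the beads. Of 7 GW182 and Argonaute genes, 6 were called higher, with a median of 1.32. The share was 85.7%, against 23.0% of all genes. Ago1 stood at 99.8, 108 and 101 CPM in the untagged inputs, 90.05, 92.2 and 82.997 in the untagged IPs, 109.9, 111 and 117 in the Trim71KO inputs and 476, 489.7 and 463 in the Trim71KO IPs, a difference of 2.30 (SE 0.15, adjusted p 3e-12). The paralogs Tnrc6b and Tnrc6c differed by 1.32 (SE 0.14) and 0.92 (SE 0.12) and Ago3 by 0.71 (SE 0.17), while Ago4, weakly expressed in all 4 groups, was not called at 0.77 (SE 0.44). Of 6 genes for making microRNAs, 2 were called higher and 1 lower, at a median of 0.08. These shares of 33.3% and 16.7% stood against 23.0% and 15.7% of all genes. Dicer1, the nuclease that cuts precursors, differed by 0.53 (SE 0.10, adjusted p 0.000136), and Dgcr8, the partner of Drosha, fell by 0.44 (SE 0.10, adjusted p 0.000794). Drosha, the exporter Xpo5 and Prkra were not called, at 0.15, 0.01 and -0.08. The Dicer partner Tarbp2, at 0.36 (adjusted p 0.00486), lost its call with library sizes alone.

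**Figure D2:**
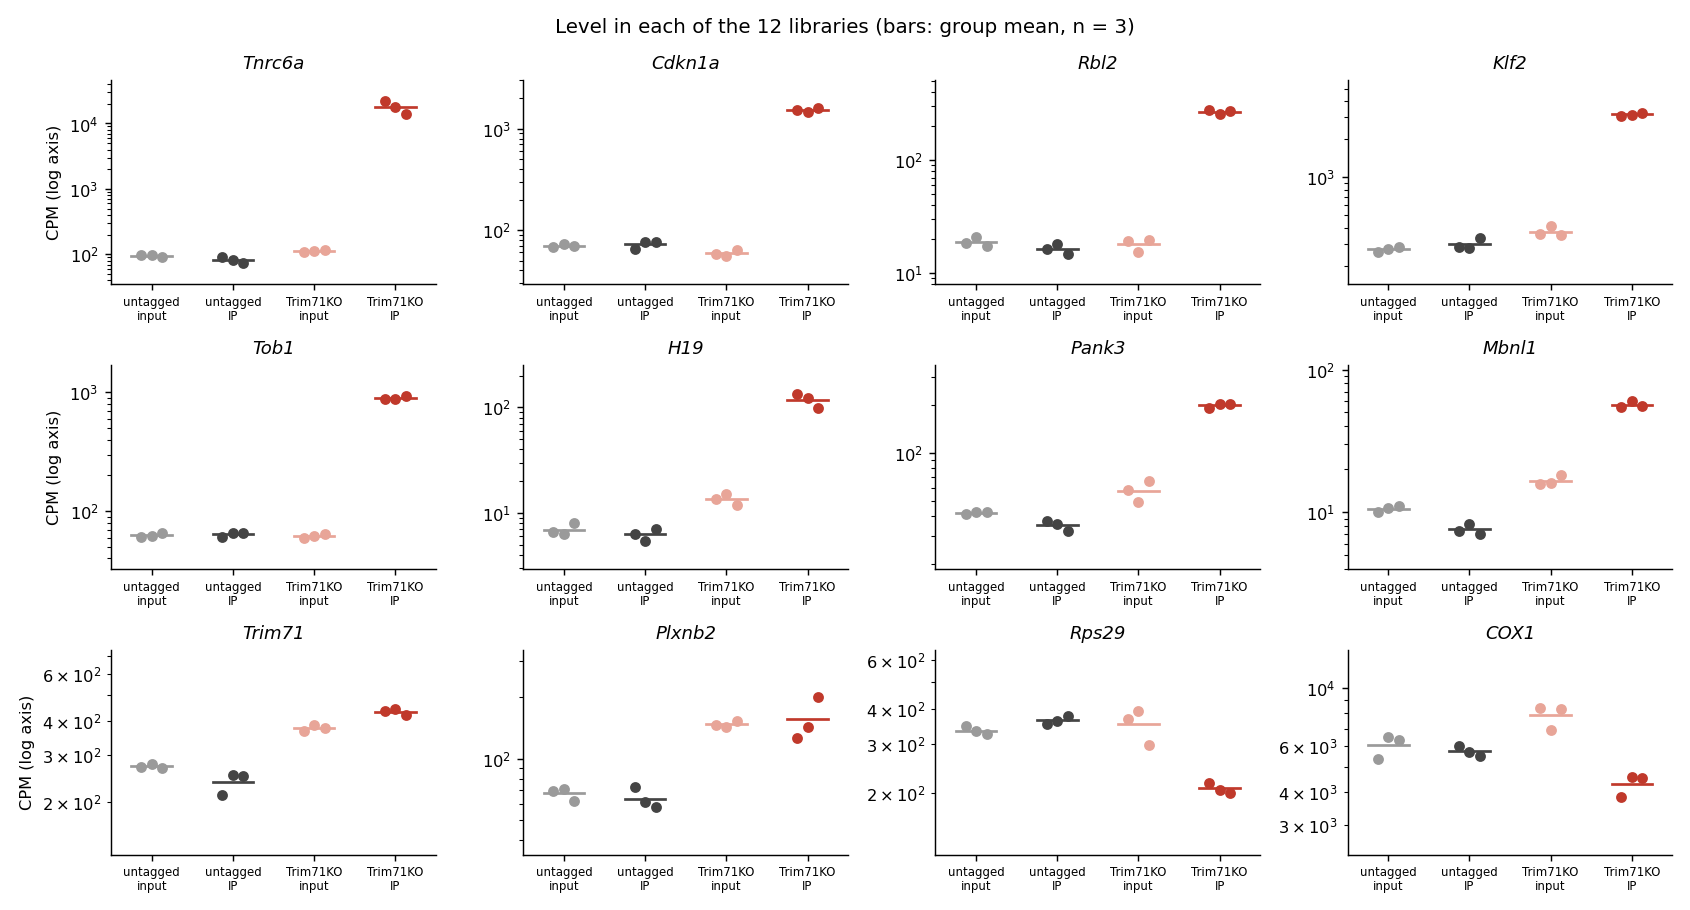
Level of 12 genes in each of the 12 libraries, in CPM on log axes, with points for the 3 replicates of each group and bars for their means. Tnrc6a, Cdkn1a, Rbl2, Klf2, Tob1, H19, Pank3 and Mbnl1 were highest in the Trim71KO IPs, Plxnb2 was raised in both Trim71KO fractions, and Rps29 and COX1 were lowest in the Trim71KO IPs.

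Several members of the machinery that acts downstream of Tnrc6a were among the recovered mRNAs. In the deadenylation list, 13 of 20 were called higher and 3 lower, with a median of 0.50. The shares were 65% and 15%, against 23.0% and 15.7% of all genes. Tob1, an antiproliferative protein that links RNA-binding proteins to the deadenylase Caf1, stood at 60.9, 61.3 and 65.4 CPM in the untagged inputs, 61.2, 65.9 and 64.99 in the untagged IPs, 59.4, 61.7 and 64.6 in the Trim71KO inputs and 872, 872 and 929 in the Trim71KO IPs. The inputs and the untagged IPs lay together and the Trim71KO IPs far above them, a difference of 3.81 (SE 0.17, adjusted p 3.82e-15). Its relatives Tob2 and Btg1 differed by 3.32 (SE 0.23) and 2.76 (SE 0.20), and Cnot6l, a catalytic deadenylase subunit of CCR4-NOT, by 2.67 (SE 0.16). Among 16 decapping and P-body genes 11 were called higher and 1 lower, with a median of 0.50. Gigyf1, a partner of the cap-binding repressor 4EHP, stood at 109, 98.4 and 96.9 CPM in the untagged inputs, 91.8, 85.9 and 87.4 in the untagged IPs, 93.9, 107 and 94.99 in the Trim71KO inputs and 799.6, 787 and 771 in the Trim71KO IPs. It differed by 3.19 (SE 0.18, adjusted p 1.71e-13). The decapping cofactor Dcp1b, the decapping enzyme Dcp2 and the P-body protein Lsm14b differed by 2.56 (SE 0.22), 1.89 (SE 0.14) and 1.49 (SE 0.12).

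Other RNA-binding repressors were called higher in 12 of 14 cases, with none lower and a median of 1.23. The share called higher was 85.7%, against 23.0% of all genes. The AU-rich element binding proteins led, with Zfp36 at 3.43 (SE 0.21, adjusted p 6.65e-13), Zfp36l2 at 2.77 (SE 0.19) and Zfp36l1 at 1.36 (SE 0.15). Zfp36 stood at 24.8, 28.4 and 26.6 CPM in the untagged inputs, 22.1, 26.9 and 26.3 in the untagged IPs, 15.5, 15.98 and 19.7 in the Trim71KO inputs and 152, 159.6 and 211 in the Trim71KO IPs. Nanos1, a germline repressor, differed by 3.10 (SE 0.23), and Pum2, an RNA-binding repressor, by 0.79. The Trim71 relatives Trim32, Trim3 and Trim2 differed by 1.65, 1.10 and 0.58. The roquin genes parted, with Rc3h2 called at 1.63 (SE 0.15) and Rc3h1 not called at 0.19 (SE 0.11). Nanos3 was weakly expressed and not called.

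Of 17 pluripotency factors 6 were called higher and 2 lower, with a median of -0.03. That is 35.3% and 11.8%, against 23.0% and 15.7% of all genes. The larger differences belonged to Kruppel-like factors. Klf2 stood at 259.6, 272 and 279 CPM in the untagged inputs, 281, 276 and 331 in the untagged IPs, 354, 409.9 and 348 in the Trim71KO inputs and 3074, 3084 and 3246 in the Trim71KO IPs. The Trim71KO IPs did not overlap the other libraries, a difference of 2.95 (SE 0.17, adjusted p 2.37e-13). Klf4, which shares targets with Klf2, differed by 1.00 (SE 0.09, adjusted p 9.36e-10), followed by Tbx3 at 0.80 (SE 0.10) and Tfcp2l1 at 0.54 (SE 0.09). With library sizes alone 6 of the 17 were called lower. In the primitive endoderm list 2 of 15 were called higher, the receptor Pdgfra at 2.10 and the hepatic nuclear factor Hnf4a at 1.20, and 1 lower, the matrix protein Sparc at -0.48. These shares of 13.3% and 6.67% were below those of all genes. The list median was -0.01, and the transcription factors Gata6, Gata4 and Sox17 were not called, at 0.36, -0.01 and 0.91.

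Chromatin regulators were measured in 2 lists. Among 16 Polycomb genes 8 were called higher and none lower, with a median of 0.33, and 5 were called with library sizes alone. The share of 50% called higher stood against 23.0% of all genes. Cbx2 and Cbx7, which read methylated histone H3, differed by 1.83 (SE 0.16) and 0.54 (SE 0.10), the methyltransferase Ezh1 by 1.75 (SE 0.13) and its cofactor Suz12 by 0.56 (SE 0.13). Of 9 DNA methylation genes 2 were called higher, the dioxygenase Tet3 at 1.42 and the maintenance enzyme Dnmt1 at 0.72, and 1 lower, the cofactor Dnmt3l at -0.29, with a median of -0.04. These shares of 22.2% and 11.1% were near the 23.0% and 15.7% of all genes. Tet1 stood at 771 ± 445 CPM in untagged IP and 704 ± 112 in Trim71KO IP (mean ± SD, n = 3) over inputs of 145 ± 12.8 and 148 ± 35.04. It was thus bound by the beads in both genotypes and was not called.

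Signalling and growth-control genes followed. The Nodal and TGF-beta pathway had 12 of 20 called higher and 1 lower, with a median of 0.78. That is 60% and 5%, against 23.0% and 15.7% of all genes. After Inhbb and Tgfbr2 came the Nodal antagonist Lefty1 at 1.89 (SE 0.24), whose input was also higher in Trim71KO cells, and the receptor Tgfbr1 at 1.71 (SE 0.15). Cell-cycle brakes had 8 of 13 called higher and 1 lower, 61.5% and 7.69%, with a median of 1.09. The lower call, of the inhibitor Cdkn1c at -0.51 (SE 0.18, adjusted p 0.0235), was lost without untagged input replicate 2, Trim71KO input replicate 2 or untagged IP replicate 3. Besides Cdkn1a, Rbl2, Lats2 and Wee1, the Hippo kinase Lats1 differed by 3.004 (SE 0.22), the inhibitor Cdkn1b (p27) by 1.21 (SE 0.11) and the retinoblastoma gene Rb1 by 1.04 (SE 0.14). The Ink4 inhibitors Cdkn2a, Cdkn2b, Cdkn2c and Cdkn2d were not called, at -0.71, 0.14, -0.34 and 0.26. The drivers of the same step were recovered as well. Of 11 G1 cyclins and kinases 8 were called higher and 1 lower, 72.7% and 9.09%, at a median of 1.16. The lower call, of the kinase Cdk4 at -0.20 (SE 0.08, adjusted p 0.0378), was lost with only the groups compared and without untagged input replicate 2, untagged input replicate 3 or Trim71KO input replicate 1. Ccne2, a partner of Cdk2, stood at 16.1, 13.7 and 14.9 CPM in the untagged inputs, 14.7, 13.4 and 13.3 in the untagged IPs, 19.4, 16.98 and 17.03 in the Trim71KO inputs and 302, 287 and 289.8 in the Trim71KO IPs, and differed by 4.15 (SE 0.25, adjusted p 6.94e-13). The D cyclins Ccnd3, Ccnd1 and Ccnd2 differed by 1.76, 1.59 and 1.37 and Ccne1 by 1.16. Cdk6 differed by 0.41, while Cdk2 and Myc were not called, at 0.13 and -0.07.

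In the Bcl2 family 5 of 14 were called higher and 2 lower, 35.7% and 14.3% against 23.0% and 15.7% of all genes, with a median of 0.21. Mcl1, a protector of embryonic cells, stood at 678, 668 and 653 CPM in the untagged inputs, 654, 677 and 671 in the untagged IPs, 661, 704 and 694 in the Trim71KO inputs and 1727, 1843 and 1842 in the Trim71KO IPs, and differed by 1.39 (SE 0.10, adjusted p 1.49e-11). The BH3-only genes Bbc3 (Puma) and Bmf differed by 0.81 (SE 0.12) and 0.80 (SE 0.11). Bax, an effector of cell death, fell by 0.45 (SE 0.10, adjusted p 0.000664). The row taken for Bcl2l2 fell by 0.41 (SE 0.09), but its symbol is missing or shared between rows, so the value may belong to another gene. Bak1, Bok, Bad and Bcl2l1 were not called, at -0.01, 0.06, -0.10 and 0.16.

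At the other end stood the abundant messages of translation and respiration. Of 79 cytosolic ribosomal protein genes 76 were called lower and 1 higher, with a median of -0.61. That is 96.2% and 1.27%, against 15.7% and 23.0% of all genes. Rps29, a small subunit protein, stood at 347, 333 and 325 CPM in the untagged inputs, 354, 361 and 379 in the untagged IPs, 369, 393 and 297 in the Trim71KO inputs and 218, 206 and 199.8 in the Trim71KO IPs. The Trim71KO IPs were the lowest 3 of the 12 libraries, a difference of -0.88 (SE 0.11, adjusted p 1.23e-07). Rplp2 and Rplp1 of the ribosomal stalk fell by 0.84 (SE 0.10) and 0.81 (SE 0.11). The exception was Rps27, another small subunit protein, which stood at 313, 318 and 312 CPM in the untagged inputs, 355, 341 and 354 in the untagged IPs, 360.3, 359 and 309 in the Trim71KO inputs and 741, 685 and 669 in the Trim71KO IPs. Its Trim71KO IPs were the highest libraries, and it differed by 0.87 (SE 0.12, adjusted p 1.62e-06). Nuclear genes of the respiratory chain were called lower in 67 of 77 cases and higher in 1, with a median of -0.53. The shares were 87% and 1.3%. These genes were led by Atp5k at -0.89 (SE 0.15), Ndufa1 at -0.84 (SE 0.16) and Ndufb3 at -0.82 (SE 0.10).

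The mRNAs made inside mitochondria were called lower in 10 of 13 cases and higher in none, with a median of -0.78. The share called lower was 76.9%, against 15.7% of all genes. In the inputs 6 of the 13 were called higher in Trim71KO cells, where 14.0% of all genes were, and none lower. Between the IPs 6 were called lower and 1 higher. COX1 stood at 5380.3, 6497 and 6317 CPM in the untagged inputs, 6009, 5709 and 5521 in the untagged IPs, 8382, 6912 and 8297 in the Trim71KO inputs and 3858, 4560.3 and 4521 in the Trim71KO IPs. Its Trim71KO IPs lay below all 9 other libraries, a difference of -0.79 (SE 0.17, adjusted p 0.000345). COX3, COX2 and CYTB fell by 0.90, 0.90 and 0.78. The exception in direction was ND2, not called at 0.05 (SE 0.23), and without Trim71KO input replicate 1 the list had 6 calls. ND1 and ATP6 each lost their call in 7 of 20 alternatives and ND4L in 8. Nuclear and structural non-coding RNAs had 14 of 20 called lower and 1 higher, with a median of -0.53. That is 70% and 5%, against 15.7% and 23.0% of all genes. Miat, Snhg12 and Meg3 fell by 0.71, 0.71 and 0.66. The long RNA that went the other way was H19, an imprinted transcript at chr7:142575530-142578146 that holds the miR-675 precursor. It stood at 6.56, 6.33 and 7.98 CPM in the untagged inputs, 6.35, 5.48 and 7.04 in the untagged IPs, 13.4, 15.2 and 11.99 in the Trim71KO inputs and 135, 123 and 98.5 in the Trim71KO IPs. Input was also raised in Trim71KO cells, but the IPs stood far above it, a difference of 3.28 (SE 0.28, adjusted p 3.49e-10).

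**Figure D3:**
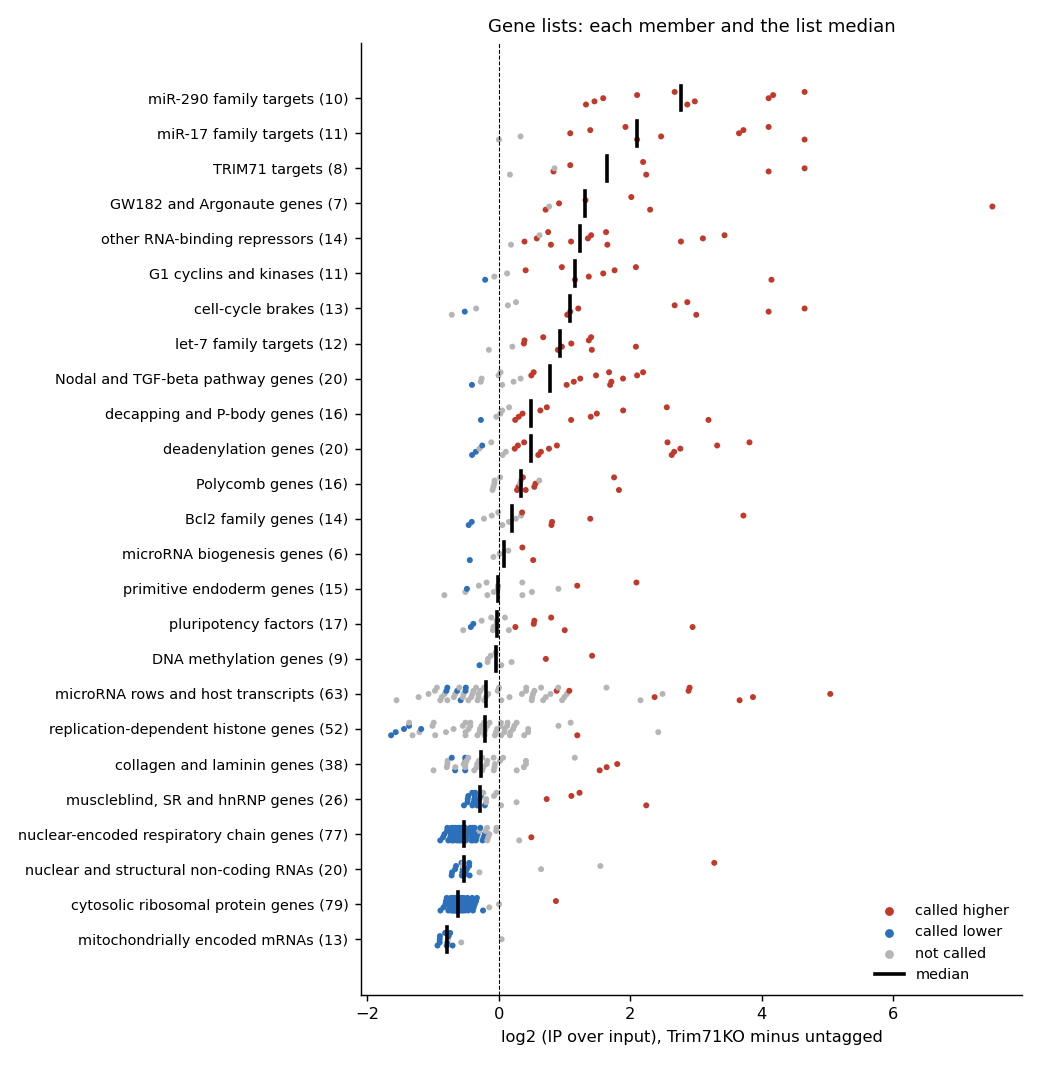
Difference of log2 IP over input, Trim71KO minus untagged, for each measured member of 25 gene lists (points, red where called higher, blue where called lower, grey where not called) and the list medians (black bars), with the number of members in brackets. The miR-290 and miR-17 target lists have the highest medians, 2.77 and 2.10, and ribosomal, respiratory and mitochondrial genes lie on the low side with medians down to -0.78.

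Genes for splicing factors lay on the low side too. Of 26 muscleblind, SR and hnRNP genes 15 were called lower and 4 higher, with a median of -0.28. The shares were 57.7% and 15.4%, against 15.7% and 23.0% of all genes. In the inputs 11 of the 26 were called higher in Trim71KO cells, where 14.0% of all genes were, and 1 lower. Between the IPs 12 were called lower and 8 higher. The 4 genes with a higher difference were Mbnl1 at 2.24, Mbnl3 at 1.23, Ptbp2 at 1.11 and Mbnl2 at 0.73. These are all 3 muscleblind genes and the neural polypyrimidine tract protein. Replication-dependent histone genes, whose mRNAs carry no poly(A) tail, had 5 of 52 called lower and 1 higher, with a median of -0.21. That is 9.62% and 1.92%, against 15.7% and 23.0% of all genes. The members named by the rule, such as H3c3, stood at 1.44 ± 0.191 CPM in untagged IP and 0.755 ± 0.438 in Trim71KO IP (mean ± SD, n = 3). The list had 1 lower call with the stricter filter, which left 6 members, and 11 with library sizes alone. It had 3 with either replicate block or DESeq2, 2 without untagged input replicate 2 or Trim71KO input replicate 3, and 3 without untagged input replicate 1, Trim71KO input replicate 1 or untagged IP replicate 3. H4c4 at -1.56 and H3c2 at -1.36 each lost their call in 11 of the 19 alternatives that tested them, among them both blocks and DESeq2. MicroRNA rows and host transcripts had 8 of 63 called higher and 6 lower, 12.7% and 9.52% against 23.0% and 15.7% of all genes, with a median of -0.19. Over the 20 alternatives the higher calls ran from 3, with the stricter filter that left 24 rows, to 11, the lower calls from 4 to 9 and the median from -0.49 to -0.02. Mir6340 stood at 1.27, 1.65 and 0.948 CPM in the untagged inputs, 0.555, 0.608 and 1.25 in the untagged IPs, 1.67, 1.48 and 1.27 in the Trim71KO inputs and 13.2, 12.4 and 10.01 in the Trim71KO IPs and differed by 3.66 (SE 0.41, adjusted p 3.97e-08), but it lies within Rab22a, and counts over such a row cannot be told apart from its host's.

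Of the broad gene families, numbered zinc finger genes had 159 of 386 called higher and 18 lower, 41.2% and 4.66%, with a median of 0.28. Zfp385a and Zfp367 followed Zfp768 there, at 4.22 (SE 0.21) and 4.21 (SE 0.25). Solute carriers had 71 of 272 higher and 34 lower, 26.1% and 12.5%, near the 23.0% and 15.7% of all genes, with a median of 0.02, and Slc45a3 differed by 3.12 (SE 0.27). Collagen and laminin genes had 3 of 38 higher and 4 lower, 7.89% and 10.5%, with a median of -0.28. Leaving out Trim71KO input replicate 2 left 1 lower.

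The genes with the largest falls by the naming rule were weakly expressed. Rab26os, an antisense RNA, stood at 5.35, 5.75 and 3.59 CPM in the untagged inputs, 6.35, 5.42 and 4.54 in the untagged IPs, 6.39, 5.38 and 4.42 in the Trim71KO inputs and 3.38, 1.97 and 2.196 in the Trim71KO IPs. It fell by 1.26 (SE 0.30, adjusted p 0.00156), and since strand handling in the counting is not stated its reads may include a partner's. Ovgp1, an oviduct glycoprotein gene, stood at 14.3, 12.5 and 10.2 CPM in the untagged inputs, 14.1, 12.8 and 12.3 in the untagged IPs, 4.96, 5.27 and 5.44 in the Trim71KO inputs and 2.92, 3.08 and 2.46 in the Trim71KO IPs. Its Trim71KO inputs were already below all untagged ones, and the IPs were lower still, a difference of -0.98 (SE 0.21, adjusted p 0.000514). The others were Gm7476 (-1.14), Creb3 (-1.03), Cyba (-1.03), Thbs3 (-1.02), Gm6745 (-0.99), Slc22a17 (-0.99), Raet1e (-0.95) and Acp5 (-0.95). The highest value among these 10 genes in the 12 libraries was the 17.8 CPM of Slc22a17 in untagged IP replicate 1.

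The recovered RNAs were longer than the rest. The deposited gene lengths had a median of 4912 bases for genes called higher, 2608.5 for genes called lower and 3360.5 for all genes tested. Among protein-coding genes, the share called higher grew from 13.6% among the 3607 shortest, up to 2730 bases, to 38.3% among the 3605 longest, from 6723 bases. The share called lower ran the other way, from 26.6% to 7.24%. Input level differed too, with a median RPKM, a value per length, of 4.98 for the higher, 18.1 for the lower and 3.78 for all genes. Of 882 pseudogenes 28.7% were called lower and 4.54% higher, against 16.2% and 27.8% of 14419 protein-coding genes. The part of length and level in the calls was not tested.

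Few RNAs differed detectably between tagged cells with and without Trim71. When IP over input in Trim71KO cells was compared with tagged cells that keep Trim71, 146 genes were called lower, 0.738% of those tested, and 149 higher, 0.753%. Both tests use the Trim71KO libraries, so their values are given side by side. Of the 146 genes called lower than tagged, 82 were still called higher than untagged, 21 were not called and 43 were called lower. The 21 and the 43 are not shown to be held by Tnrc6a in Trim71KO cells. The median difference of the 146 from untagged was 0.73 in Trim71KO and 1.49 in tagged cells. Of the 149 called higher than tagged, 144 were called higher than untagged. The medians of the 149 were 1.13 and 0.62. The bait's own mRNA stood at 24216, 17194 and 12945 CPM in the tagged IPs, overlapping the Trim71KO IPs given above. The counts of calls depend on single libraries. The total of 295 calls fell to 98 without Trim71KO IP replicate 2 and rose to 562 without tagged IP replicate 1.

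The RNAs that remained on Tnrc6a but at a lower level than with Trim71 were led by Pank3, the pantothenate kinase of coenzyme A synthesis, at chr11:35769495-35791285. It stood at 41.1, 42.5 and 42.2 CPM in the untagged inputs, 37.1, 35.8 and 32.3 in the untagged IPs, 58.001, 48.8 and 66.1 in the Trim71KO inputs and 191, 201 and 203 in the Trim71KO IPs. In tagged cells the IPs held 1008, 803 and 658 CPM over inputs of 49.9, 42.5 and 41.9. The Trim71KO IPs thus lay between the untagged and the tagged IPs with no overlap, 2.04 (SE 0.19) above untagged and -2.42 (SE 0.18, adjusted p 1.18e-08) from tagged. Mbnl1, the muscleblind splicing regulator at chr3:60472559-60629750, stood at 9.95, 10.6 and 10.98 CPM in the untagged inputs, 7.401, 8.296 and 7.04 in the untagged IPs, 15.6, 15.98 and 18.2 in the Trim71KO inputs and 54.5, 60.6 and 55.1 in the Trim71KO IPs. The tagged IPs held 174, 139.8 and 108 CPM. It was 2.24 (SE 0.24) above untagged and differed from tagged by -1.89 (SE 0.21, adjusted p 9.49e-06). Spty2d1, a histone chaperone gene, was 1.59 above untagged and -1.88 (SE 0.17, adjusted p 1.69e-07) from tagged. Ier5, an immediate early gene, was 2.19 above and -1.72 (SE 0.28, adjusted p 0.000948) from tagged, and the transcription factor gene Nfib 2.67 and -1.66 (SE 0.19, adjusted p 9.49e-06). In Ago2KO cells the same 5 genes stood 3.46, 3.21, 2.86, 4.47 and 3.73 above untagged, in the order Pank3, Mbnl1, Spty2d1, Ier5, Nfib. All 5 calls against tagged were kept in the 20 alternatives run. Trim71 mRNA, at -1.02 (SE 0.12, adjusted p 9.49e-06) from tagged, was kept in all 20 as well.

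Recovered RNAs with a higher IP over input than in tagged cells showed smaller differences. Mfsd9, a member of the major facilitator family, stood at 6.56, 7.19 and 5.14 CPM in the untagged inputs, 6.35, 6.305 and 5.62 in the untagged IPs, 4.08, 4.64 and 4.93 in the Trim71KO inputs and 18.6, 18.5 and 22.8 in the Trim71KO IPs. Its tagged IPs held 16.6, 15.2 and 14.04 CPM. It was 2.18 above untagged and 0.97 (SE 0.18, adjusted p 0.00584) from tagged. Kbtbd8, an adaptor of a cullin ubiquitin ligase, differed from tagged by 0.72 (SE 0.14, adjusted p 0.00553), and both calls were kept in all 20 alternatives. Cpeb1, which controls cytoplasmic polyadenylation, differed by 0.82 (SE 0.18, adjusted p 0.0161), with adjusted p values of 0.0519, 0.0819 and 0.084 without tagged input replicate 1, Trim71KO input replicate 1 and Trim71KO IP replicate 3. The palmitoyltransferase gene Zdhhc9 and the receptor gene Heg1 differed by 0.75 (adjusted p 0.0147) and 0.80 (adjusted p 0.0474), and lost their calls in several fits without one library.

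Other recovered RNAs had estimates near the tagged level. Hic2, Jrkl, Eif4g1, Hmgb3 and Rtn2 were chosen for the smallest differences from tagged. That their intervals centre near no difference follows from this choice. Hic2, a transcriptional repressor gene, was 1.85 above untagged, with a 95% interval of -0.30 to 0.30 for its difference from tagged. Jrkl was 1.68 above untagged with an interval of -0.37 to 0.37. For Eif4g1, the scaffold of translation initiation, the interval was -0.23 to 0.23 and for Hmgb3, a chromatin protein gene, -0.27 to 0.27. Rtn2 was nearest, with an interval of -0.25 to 0.24, but its own difference from untagged of 0.32 (adjusted p 0.0345) lost its call in 10 of the 12 fits without one library. Among the microRNA targets above, Cdkn1a had an interval of -0.41 to 0.41 and Bcl2l11 of -0.33 to 0.38. That of Rbl2, -0.80 to 0.25, reached further below than above the tagged level, so an unchanged level is not shown.

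**Figure D4:**
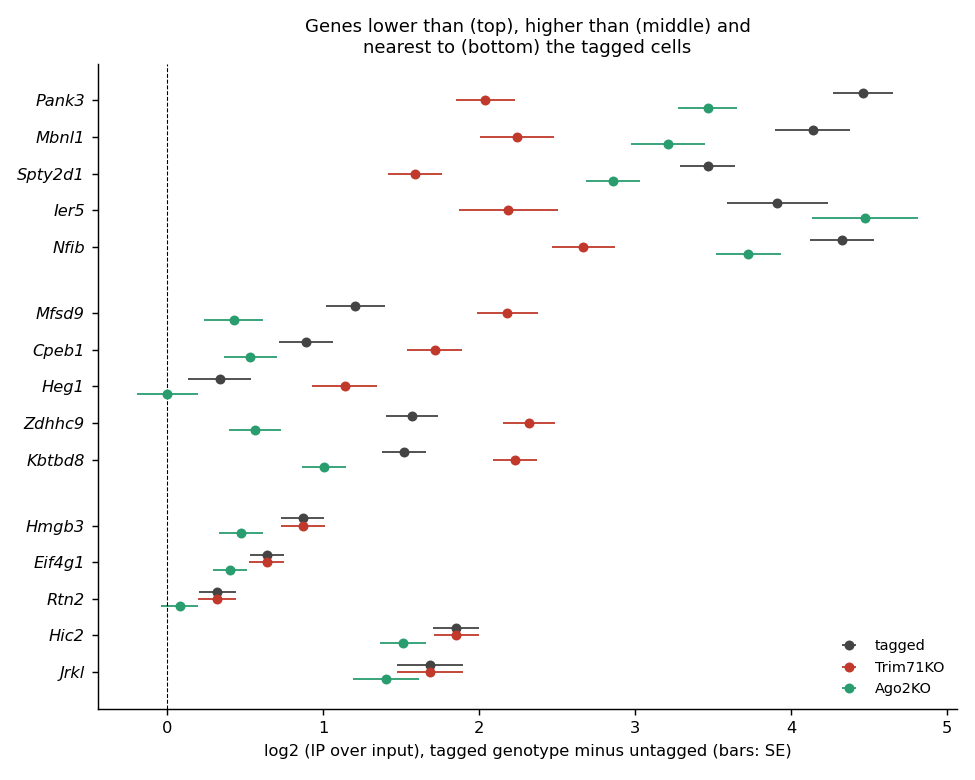
Difference of log2 IP over input from untagged cells in tagged (black), Trim71KO (red) and Ago2KO (green) cells, with bars for 1 SE, for the 5 genes that differed most downward from tagged, the 5 that differed most upward and the 5 nearest to it. In the top group Trim71KO lies between 1.59 and 2.67, below both other genotypes; in the middle group it lies above them. All 3 use the same untagged libraries.

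Experiment 1 holds the same 4 groups in separate libraries. Its 18772 tested genes gave 4810 higher calls, 25.6%, and 5500 lower calls, 29.3%. Of 18553 genes tested in both experiments, 3949 were called higher in both, which is 87.2% of the higher calls of experiment 2 and 82.6% of those of experiment 1. Called lower in both were 2677, which is 87.2% of the lower calls of experiment 2 and 48.9% of those of experiment 1. Calls in opposite directions were found for 12 genes, all higher in experiment 2, among them Ankra2 at 0.69 and -1.68 and Cspp1 at 0.35 and -1.23. The differences had a Spearman's rho of 0.792 and a Pearson's r of 0.833 across genes, and genes are not independent. Cdkn1a differed by 4.65 and 5.37 in experiments 2 and 1, Zfp768 by 5.15 and 6.21, and Tnrc6a by 7.50 and 7.48. The miR-290 list was called higher in 10 of 10 again, at a median of 3.51. Genes called higher in experiment 2 had a median of 1.28 in experiment 1, and genes called lower -0.82.

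**Figure D5:**
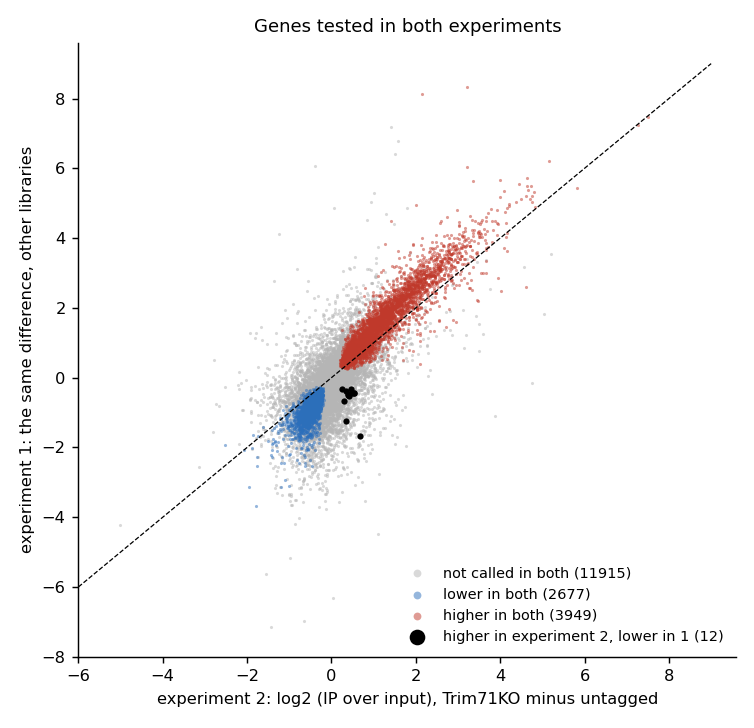
Difference of log2 IP over input, Trim71KO minus untagged, in experiment 2 (horizontal axis) and in the separate libraries of experiment 1 (vertical axis), for the 18553 genes tested in both; the dashed line marks equal values. The 3949 genes higher in both are red, the 2677 lower in both blue, the 12 called in opposite directions black and the others grey.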

How the data were processed

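Counts and RPKM per gene were deposited by the authors, in a table per experiment with a gene length column whose header refers to QuasR. The submitters' processing notes name bcl2fastq 2.20, STAR 2.7.3a and GRCm38 (mm10). The counter, the annotation and the handling of strand and of near-identical copies are not given in the sources used here, so values of overlapping genes and copies are uncertain. Library totals and their counting precision ignore duplicate molecules, since no molecular identifiers are stated. No spike-in is named, so IP and input are compared as shares of their libraries.

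Raw counts of all 24 libraries of experiment 2 entered a single edgeR 4.0.16 fit in R 4.3.3, with TMM normalization, the filterByExpr filter, a mean per group and the quasi-likelihood F test. SE is the size of the log2 difference over the root of F, and CPM are scaled to TMM-adjusted library sizes, and RPKM served for markers and input levels only. Groups were taken from titles and experiments from descriptions. Alternatives were RLE normalization, library size alone, no filter, a stricter filter (50 counts in 3 libraries), DESeq2 1.42.0, only the groups compared, a replicate block, and leaving out each library. The fit was tested on simulated data. The main fit did not use replicate numbers as pairs. Correlations of deviations ran from -0.00409 to 0.322 between IP and input of equal number within a genotype. Between untagged and Trim71KO libraries of a fraction they ran from -0.282 to 0.129. Libraries of unlike number were not correlated for reference, so whether IP and input of equal number share a dish was not tested. Positions and sequences are RefSeq's (GRCm38.p6).

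The comparison and the gene lists were chosen with earlier results of these data known, and the lists come from general knowledge of the field. Genes were named by rule: Tnrc6a, Trim71 and Ago2; the 10 largest differences each way among called genes with a symbol, a mean log2 CPM of at least 2 and no overlap of the 9 IP minus input differences of each genotype; among called higher genes of that kind, the 5 largest falls and rises against tagged and the 5 nearest to it; up to 4 leading members of each list, or all members of lists of 15 or fewer; and genes with the largest shares of Trim71KO IP counts. Ankra2 and Cspp1 were chosen after their values were seen.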

Additional observations from a re-analysis of the deposited data

Results flagged for a closer look

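Each gene given here is one that the text or the naming rule names and whose IP over input differed between Trim71KO and tagged cells by the test of that difference (edgeR adjusted p under 0.05). Values are log2 differences, Trim71KO minus tagged. On the low side were Pank3 at -2.42, Mbnl1 at -1.89, Spty2d1 at -1.88, Ier5 at -1.72, Nfib at -1.66 and Trim71 at -1.02. The cell-cycle factor E2f3 stood at -1.01, Zfp367 at -0.96, Lats1 at -0.85, Plxnb2 at -0.77, Rc3h2 at -0.69 and Dcp2 at -0.58. On the high side were Mfsd9 at 0.97, Cpeb1 at 0.82, Heg1 at 0.80, Zdhhc9 at 0.75, Kbtbd8 at 0.72, Zfp36l1 at 0.60, Ccnd3 at 0.44, Lin28a at 0.40 and Klf4 at 0.38.

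Of these 21 calls, 8 were kept in all 20 alternatives run, those of Pank3, Mbnl1, Spty2d1, Ier5, Nfib, Trim71, Mfsd9 and Kbtbd8. Plxnb2 lost its call without Trim71KO IP replicate 2 (-0.73, adjusted p 0.0614) and Rc3h2 without tagged input replicate 3 (-0.65, adjusted p 0.0524). E2f3 lost it without tagged input replicate 3 (-0.94), Trim71KO input replicate 1 (-1.001) or Trim71KO IP replicate 2 (-1.03). Counting alternatives of every kind, Cpeb1 lost its call in 3 of 20, Zdhhc9 in 5, Lats1 in 9, Zfp367 in 10, Dcp2 and Lin28a in 11, Klf4 in 12, Heg1 in 13, Zfp36l1 in 14 and Ccnd3 in 15. None of the 21 changed sign.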

How the results depend on the processing

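Against untagged cells, 153 of 168 named calls were kept under all alternatives run and none changed sign. Of the 4547 higher calls, 80.4% to 99.2% were shared, the lowest with library sizes alone, and of the 3100 lower calls 85.2% to 100%. Lower calls numbered 4737 with library sizes alone, which moved the median of all genes to -0.175, and 5500 in experiment 1, where 5140 calls were at least 2-fold against 2431. The replicate block gave 7939 calls within genotype and 7936 within fraction against 7647. Leaving out a library gave 6968 to 7566 calls, 4135 to 4467 higher, 2713 to 3283 lower and 2332 to 2459 at least 2-fold.

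Counts against tagged cells moved more. The 295 calls became 489 with library sizes alone, 136 with only the groups compared, 548 with DESeq2, and 522 and 470 with the replicate block within genotype and within fraction. The 149 higher calls became 88 with RLE, 370 with library sizes alone, 78 without a filter, 47 with only the groups compared, 289 and 265 with the block, and 243 with DESeq2. The 146 lower calls became 89 with only the groups compared, 233 with the block within genotype and 305 with DESeq2, which called 37 at least 2-fold in place of 57. Higher calls made up 50.5% of the total, 75.7% with library sizes alone and 38.6% with RLE. Leaving out a library gave 98 to 562 calls, 32 to 363 higher, 66 to 283 lower and 39 to 70 at least 2-fold. The causes were not tested. Between the IPs, leaving out a library gave 10830 to 11058 calls, and between the inputs 4625 to 5027. With the stricter filter 588 input differences were at least 2-fold in place of 1184. Of the 4945 genes lowest in mean log2 CPM, 6.69% were called higher and 3.03% lower against untagged cells.

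Small counts within gene lists moved by over 1.5 times as well. With library sizes alone the lower calls went from 3 to 5 for deadenylation genes, from 1 to 3 for DNA methylation genes and from 18 to 36 for numbered zinc finger genes. Over all alternatives they ran from 0 to 1 for let-7 targets and from 1 to 2 for primitive endoderm and for Nodal and TGF-beta genes, and higher calls of respiratory chain genes from 0 to 2. Pluripotency factors had 1 lower call without Trim71KO input replicate 2.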
